A study of Mus musculus with 8 samples.

Results

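The genes described here act at the outer face of the macrophage membrane, where they cut, activate or anchor other proteins. They are the urokinase receptor Plaur and its ligand Plau, the matrix metalloproteinases Mmp14 and Mmp19, the ADAM proteases Adam8, Adam9, Adam10 and Adam17, the metalloproteinase inhibitor Timp2 and the hyaluronan receptor Cd44. The 10 genes were chosen by name, with earlier results of these data known, and all 10 were found among the 55335 gene identifiers of the deposited table. The RNA came from Raw264.7, a mouse tumour line with macrophage character, so every value belongs to 1 cell line. Both groups were kept for 3 days with a bone scaffold material. In 4 libraries the material was TABS (Trio-Active bone scaffold), and in 4 libraries it was HA/Mg, hydroxyapatite doped with magnesium ions. The components of TABS are not named in the labels, and both groups had a scaffold, so each difference is TABS against HA/Mg and not against cells alone. Libraries are numbered 5 to 8 in both groups. The table's library names carry an H for TABS and an L for HA/Mg, although HA also begins with H. The groups follow the sample labels, and if these were exchanged every direction would reverse.

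Urokinase, the product of Plau, is a secreted serine protease that turns plasminogen into plasmin. Its receptor, the product of Plaur, is held in the membrane by a lipid anchor and keeps urokinase at the cell surface. MMP14 is a membrane-bound collagenase that activates proMMP2 together with TIMP2, while ADAM10 and ADAM17 are sheddases that release the outer parts of membrane proteins, among them TNF and its receptors. Macrophages use these systems to move through matrix and to turn membrane-bound signals into soluble ones.

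The values are FPKM, the number of sequenced fragments per kilobase of transcript and per fixed number of mapped fragments. The spacing of low values implied 19700000 to 23600000 fragments in a library. Of these low values 41.2% to 44.4% lay within 0.05 of a whole fragment, so the depths are estimates. A total of 10161 genes reached 1 FPKM in at least 4 of the 8 libraries and were tested. On the first principal component, with 40.2% of the variance, the TABS libraries had scores of 5.72 to 16.5. HA/Mg replicate 6 scored 2.62, nearest to TABS, and the other HA/Mg libraries -16.4 to -12.7. Of 8 macrophage markers 7 were expressed, including Cd68 (526 to 563 FPKM with TABS and 421 to 490 FPKM with HA/Mg), and Mertk was listed at 0 in 7 of the 8 libraries. The 8 markers together summed to 2090 to 2456 FPKM with TABS and 1762 to 2192 FPKM with HA/Mg. All 9 fibroblast and osteoblast markers, 5 endothelial, 5 epithelial and 7 T and B cell markers stayed under 1 FPKM in every library. The sums of these lists were at most 0.284, 0.0879, 0 and 0.560 FPKM with TABS, and 0.189, 0.0751, 0.0220 and 0.328 FPKM with HA/Mg. The labels do not say whether the libraries of a group were grown separately, so p-values measure the spread between libraries, which may be technical.

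Adam8 and Cd44 were the most abundant of the 10 genes and Mmp14 and Timp2 were close to absent. Over all 8 libraries the mean level was 63.6 FPKM for Adam8, 30.5 FPKM for Cd44, 29.5 FPKM for Adam9, 19.4 FPKM for Adam17 and 18.1 FPKM for Adam10. Plau followed at 13.4 FPKM, Plaur at 13.0 FPKM and Mmp19 at 2.48 FPKM. These levels are per length, but they can be set against each other only roughly, as the tool and annotation behind the FPKM are not stated. Adam8 stood above every other member in every library, at the 91.9th percentile of the tested genes. The library ranges of Cd44 and Adam9 overlapped, as did those of Adam17 and Adam10, Adam10 and Plau, and Plau and Plaur. Compared within the same library, none of these pairs kept the same order in all 8 libraries. The ranges of Adam9 and Adam17 only just failed to overlap. Adam9, down to 24.4 FPKM, and Adam10, up to 25.3 FPKM, overlapped in range, though Adam9 was higher within every library. Adam10, down to 13.9 FPKM, also overlapped with Plaur, up to 16.2 FPKM, and their order varied between libraries. Mmp19 lay below Plaur and Plau in every library and at the 18.05th percentile.

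Mmp14 had 0.0156, 0.00857, 0 and 0 FPKM in TABS replicates 5 to 8, against 0.00959, 0, 0 and 0 FPKM in HA/Mg replicates 5 to 8. With the estimated depth and the longest annotated transcript, the highest of these values corresponds to 1.1 fragments. Timp2 had 0, 0.0197, 0 and 0 FPKM in TABS replicates 5 to 8, against 0.0114, 0.0112, 0 and 0.0819 FPKM in HA/Mg replicates 5 to 8, the highest being about 7.2 fragments. Neither gene entered the test, and a difference between the materials was not detectable at this depth. Their other partner, the gelatinase gene Mmp2, was also under 1 FPKM (0.288 to 0.499 FPKM with TABS and 0.297 to 0.630 FPKM with HA/Mg).

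**Figure D1:**
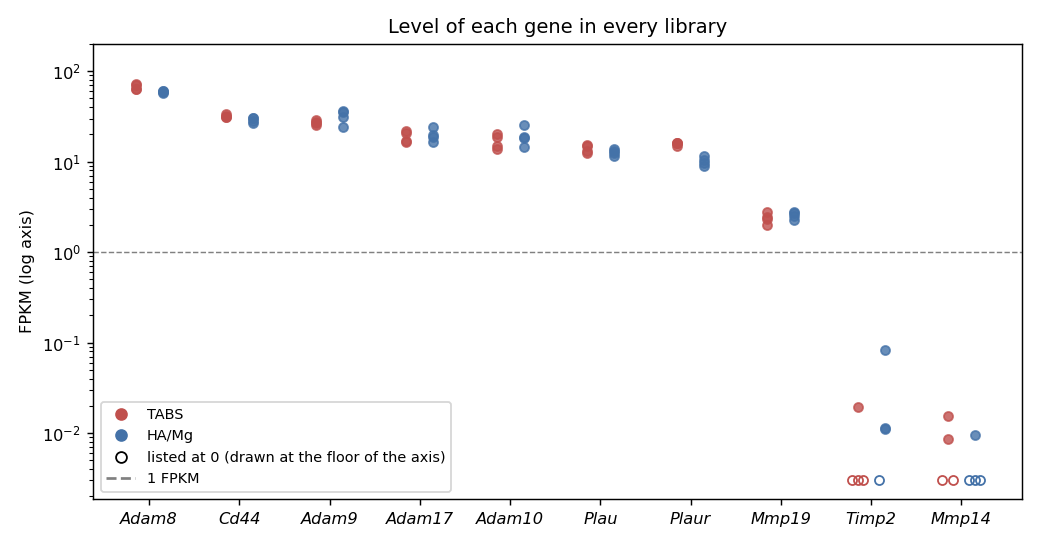
FPKM on a log axis for each of the 10 genes, with 1 point per library, TABS in red and HA/Mg in blue; open points are libraries listed at 0. Of the 10 genes 8 lie above the dashed line at 1 FPKM in all 8 libraries, while Timp2 and Mmp14 lie at or under 0.0819 FPKM.

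Of the 8 tested members 2 were higher with TABS, Plaur and Adam8, and 0 were lower, while 6 did not pass. Differences were tested two-sided with limma on log2(FPKM + 1). The p-values were adjusted by Benjamini and Hochberg's method over all tested genes, with a threshold of 0.05. The log2(FPKM + 1) scale understates the change of a gene with a low level. At an unadjusted p under 0.05, 3 members were higher and 0 were lower. Among all 10161 genes 5.07% were higher with TABS (515 genes) and 13.1% were lower (1327 genes). This split moved with the scaling, to 251 higher and 1549 lower with equal sums, 806 and 1192 with quantile normalization, and 858 and 1059 with median-of-ratios scaling. The 4 TABS libraries lay wholly above the 4 HA/Mg libraries for 3 members, Plaur, Adam8 and Cd44. Such complete separation with TABS on top was found for 8.05% of the tested genes, and in either direction for 23.1%. The median log2 change was 0.03 over the 8 members and -0.04 over all tested genes. With 10 genes chosen by name these counts describe the members and do not set them apart from other genes.

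Plaur, the urokinase receptor, showed the clearest difference of the members. It stood at 16.2, 15.98, 16.1 and 14.97 FPKM in TABS replicates 5 to 8, against 9.01, 11.5, 10.4 and 9.63 FPKM in HA/Mg replicates 5 to 8. All TABS libraries lay close together and above the highest HA/Mg library, which was replicate 6. The means were 15.8 ± 0.561 FPKM with TABS and 10.1 ± 1.07 FPKM with HA/Mg (SD, n = 4 each), so Plaur was 1.56-fold higher with TABS. Its log2 change was 0.60 ± 0.07 (SE, 95% interval 0.44 to 0.76, limma adjusted p = 0.00851), the 11th smallest p of the 10161 genes. In bulk RNA a higher level in each cell and a larger share of cells that express the gene cannot be told apart.

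Plaur (ENSMUSG00000046223) occupies chr7:24462484-24475968 of GRCm38 (plus strand), as annotated by GENCODE. It shares no exon bases with another annotated gene, and all 10 genes are protein-coding. RefSeq promoter windows of 300 bases (GRCm38.p6, from 250 bases before to 50 bases after the transcription start) were at hand for 7 of the 10 genes. The windows of Plaur, Adam8 and Cd44 are shown because these are the members whose TABS libraries all lay above the HA/Mg libraries. Each runs 5′ to 3′ along the gene, and capitals mark AP-1 sites (TGANTCA, the motif of FOS and JUN family factors) and GC boxes (GGGCGG, bound by SP1). Both strands were searched, and adjoining GC boxes can share a base.
Plaur, chr7:24462233-24462532, plus strand: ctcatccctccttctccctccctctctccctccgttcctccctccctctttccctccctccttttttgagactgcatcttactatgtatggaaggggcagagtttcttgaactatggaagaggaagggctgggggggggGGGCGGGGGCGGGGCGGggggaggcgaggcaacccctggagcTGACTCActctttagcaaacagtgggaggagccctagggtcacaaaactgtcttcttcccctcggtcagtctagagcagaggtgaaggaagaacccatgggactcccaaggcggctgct
Adam8, chr7:139992513-139992812, minus strand: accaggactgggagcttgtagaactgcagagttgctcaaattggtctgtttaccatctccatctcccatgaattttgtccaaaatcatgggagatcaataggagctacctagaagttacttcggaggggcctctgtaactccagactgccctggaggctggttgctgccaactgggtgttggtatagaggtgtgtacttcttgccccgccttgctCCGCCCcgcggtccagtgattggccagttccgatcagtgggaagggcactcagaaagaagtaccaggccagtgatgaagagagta
Cd44, chr2:102901616-102901915, minus strand: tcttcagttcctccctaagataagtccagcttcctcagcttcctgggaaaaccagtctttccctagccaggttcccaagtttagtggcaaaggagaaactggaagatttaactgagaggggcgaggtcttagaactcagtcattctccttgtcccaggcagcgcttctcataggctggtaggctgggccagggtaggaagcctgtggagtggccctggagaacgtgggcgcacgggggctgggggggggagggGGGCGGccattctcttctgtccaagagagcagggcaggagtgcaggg

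The Plaur window held an AP-1 site, 69 to 63 bases before the start, and 3 adjoining GC boxes from 111 to 95 bases before it. An AP-1 site was found in 1 of the 7 member windows, that of Plaur, and in 7.81% of all 32851 windows. All 7 member windows held a GC box, against 35.7% of all windows. These 7 windows had a GC content of 52.3% to 73.3%, against a median of 52.7% over all windows. The part of base composition in the GC box count was not tested. The PU.1 box GAGGAA, recognised by the macrophage factor PU.1, was in 3 of 7 (Plaur, Adam10 and Cd44) against 28.3%, and the cyclic AMP response element TGACGTCA was in 0 of 7 against 1.79%. The windows of Plaur, Adam8 and Cd44 had 7, 6 and 6 CpG dinucleotides, near the median of 7 over all windows, while those of Adam10, Adam17 and Timp2 had 32, 30 and 25 and that of Mmp14 had 10. A match is a stretch of letters and not a measured binding site.

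Plau, the ligand of that receptor, did not pass. It stood at 15.4, 14.9, 12.5 and 13.2 FPKM in TABS replicates 5 to 8, against 13.7, 11.6, 12.6 and 13.2 FPKM in HA/Mg replicates 5 to 8. TABS replicates 5 and 6 were the 2 highest libraries, while TABS replicates 7 and 8 lay among the HA/Mg values. The means were 14.0 ± 1.37 FPKM with TABS and 12.8 ± 0.913 FPKM with HA/Mg (SD, n = 4 each). The log2 change was 0.13 ± 0.08 with a 95% interval of -0.04 to 0.30 (limma adjusted p = 0.257). Plau (ENSMUSG00000021822) occupies chr14:20836660-20843385 (plus strand).

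The FPKM of the receptor exceeded that of the ligand in every TABS library and in no HA/Mg library. The ratio of Plaur to Plau FPKM was 1.05, 1.07, 1.29 and 1.13 in TABS replicates 5 to 8, against 0.658, 0.992, 0.826 and 0.729 in HA/Mg replicates 5 to 8. It was 1.43-fold higher with TABS, and such a ratio is unaffected by a scaling factor per library. A trend with transcript length or GC content is not cancelled in this way. The GC content of the longest transcript was 53.0% for Plaur and 48.3% for Plau. No ratio was computed with such trends removed. With them removed the log2 changes of the single genes were 0.56 for Plaur and 0.18 for Plau, against 0.60 and 0.13 as deposited. An exact two-sided permutation test gave p = 0.0286, the smallest that 4 against 4 libraries allow, and an adjusted p = 0.0857 over the 3 ratios computed. It did not pass the correction, which 1 ratio alone at that smallest p cannot pass, whatever the size of its difference.

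Around this pair, 16 further genes of the plasminogen system were examined, of which 7 were tested and 9 were too low. Of the 7 tested genes 0 passed limma in either direction, and 0 had an unadjusted p under 0.05. Their median log2 change was 0.08, against -0.04 over all tested genes. Anxa2, which encodes annexin A2, a surface protein that binds plasminogen together with S100A10, had the smallest p. It averaged 60.1 ± 2.83 FPKM with TABS and 54.5 ± 5.62 FPKM with HA/Mg (SD, n = 4 each, limma adjusted p = 0.179), and passed only without HA/Mg replicate 6 (adjusted p = 0.0316). Igf2r, a receptor that binds Plaur protein and plasminogen, averaged 13.7 ± 1.93 FPKM with TABS and 12.6 ± 0.585 FPKM with HA/Mg (SD, n = 4 each, limma adjusted p = 0.444). The untested genes included those of plasminogen itself (Plg), the tissue activator (Plat) and the inhibitor PAI-2 (Serpinb2), each under 1 FPKM in every library.

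**Figure D2:**
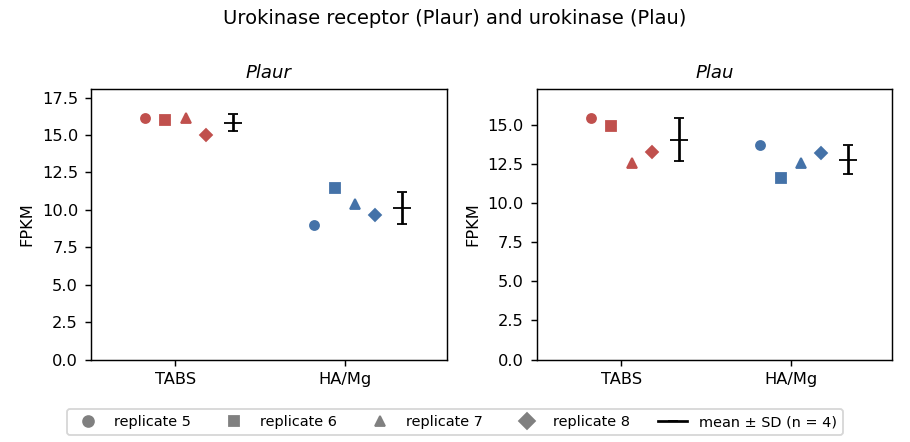
FPKM of Plaur and Plau, with 1 symbol per library by replicate number and the mean ± SD of 4 libraries in black. Plaur separates completely, with TABS at 14.97 to 16.2 FPKM and HA/Mg at 9.01 to 11.5 FPKM, while the groups overlap for Plau.

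Among the 5 genes whose profiles over the 8 libraries were nearest to that of Plaur were Fgr, P2ry6, Urah and Hdc. Nearness was the root-mean-square distance between log2(FPKM + 1) values after each gene was centred on its own mean, and it was 0.07, 0.07, 0.08 and 0.10 for these 4 genes, as a description of these libraries. Fgr encodes a Src-family kinase of myeloid cells and averaged 13.9 FPKM with TABS and 8.70 FPKM with HA/Mg. P2ry6 encodes a receptor for the nucleotide UDP and averaged 14.1 FPKM with TABS and 9.35 FPKM with HA/Mg. Urah and Hdc, which encode an enzyme of urate breakdown and histidine decarboxylase, averaged 8.04 and 3.29 FPKM with TABS and 5.41 and 2.07 FPKM with HA/Mg.

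Adam8, a myeloid ADAM protease that cleaves adhesion molecules, was modestly higher with TABS. It stood at 70.9, 71.9, 63.8 and 63.6 FPKM in TABS replicates 5 to 8, against 57.6, 61.2, 61.0 and 59.2 FPKM in HA/Mg replicates 5 to 8. TABS replicates 5 and 6 were well above the rest, and TABS replicates 7 and 8 were just above the HA/Mg libraries. The means were 67.6 ± 4.46 FPKM with TABS and 59.7 ± 1.70 FPKM with HA/Mg (SD, n = 4 each), 1.13-fold higher, with a log2 change of 0.17 ± 0.05 and limma adjusted p = 0.0476. This call sat at the threshold and ended in 12 of 20 alternative settings (adjusted p of 0.0525 to 0.173). The call depended on each of 6 libraries (TABS replicates 5, 6 and 7; HA/Mg replicates 5, 7 and 8), and ended after rescaling to equal sums and after removal of length and GC trends. Adam8 (ENSMUSG00000025473) occupies chr7:139978932-139992562 (minus strand). An antisense transcript, Gm16201, shares 1.0% of its exon bases.

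The other ADAM genes did not pass, and their groups overlapped. Adam9, a widely expressed sheddase, stood at 28.9, 25.4, 26.9 and 27.8 FPKM in TABS replicates 5 to 8, against 24.4, 31.5, 36.0 and 35.1 FPKM in HA/Mg replicates 5 to 8. HA/Mg replicate 5 was the lowest of all 8 libraries while the other HA/Mg libraries were the 3 highest. Its log2 change was -0.20 ± 0.11 (limma adjusted p = 0.212). Without HA/Mg replicate 5 it was -0.32 and passed (adjusted p = 0.0439), and after removal of length and GC trends it was -0.08 (adjusted p = 0.698).

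Adam10, the main sheddase of Notch receptors, stood at 18.8, 14.8, 13.9 and 20.4 FPKM in TABS replicates 5 to 8, against 18.2, 14.6, 25.3 and 18.7 FPKM in HA/Mg replicates 5 to 8. Its log2 change was -0.16 with a wide 95% interval of -0.53 to 0.21 (limma adjusted p = 0.512). Adam17, the TNF-converting enzyme, stood at 20.8, 21.6, 17.1 and 16.3 FPKM in TABS replicates 5 to 8, against 19.0, 16.5, 24.3 and 19.6 FPKM in HA/Mg replicates 5 to 8. Its log2 change was -0.06 with a 95% interval of -0.33 to 0.22 (limma adjusted p = 0.765). HA/Mg replicate 7 held the highest value of all 8 libraries for Adam9, Adam10, Adam17 and Mmp19. For both Adam10 and Adam17 the sign of the change turned to positive, still without passing, when length and GC trends were removed (0.04 and 0.10 on the log2 scale).

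Adam9 (ENSMUSG00000031555) occupies chr8:24949611-25016927 (minus strand), Adam10 (ENSMUSG00000054693) occupies chr9:70678997-70780229 (plus strand), and Adam17 (ENSMUSG00000052593) occupies chr12:21323509-21373632 (minus strand). Adam17 shares 4.3% of its exon bases with Iah1 on the opposite strand, and as no strand setting is stated, fragments there could be counted for either gene. The ratio of Adam10 to Adam17 was 0.900, 0.686, 0.812 and 1.25 in TABS replicates 5 to 8, against 0.959, 0.883, 1.04 and 0.955 in HA/Mg replicates 5 to 8, and did not pass an exact permutation test (p = 0.657, adjusted p = 0.657). The ratio of Adam8 to Adam9 was 2.45, 2.83, 2.37 and 2.29 in TABS replicates 5 to 8, against 2.36, 1.94, 1.69 and 1.68 in HA/Mg replicates 5 to 8. It was 1.30-fold higher with TABS, with HA/Mg replicate 5 inside the TABS range (exact permutation p = 0.0571, adjusted p = 0.0857). Transcript GC content was 54.9% for Adam8 and 46.6% for Adam9, and this ratio too was not computed with length and GC trends removed. Adam8 made up 49.6% to 53.8% of the summed FPKM of the 4 ADAM genes with TABS and 41.6% to 49.4% with HA/Mg.

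Cd44, the receptor that binds hyaluronan and osteopontin, separated completely between the groups but did not pass. It stood at 32.3, 31.3, 33.6 and 31.3 FPKM in TABS replicates 5 to 8, against 30.2, 26.9, 30.2 and 28.3 FPKM in HA/Mg replicates 5 to 8. The gap between the lowest TABS and the highest HA/Mg library was small beside the spread within HA/Mg. The means were 32.1 ± 1.05 FPKM with TABS and 28.9 ± 1.61 FPKM with HA/Mg (SD, n = 4 each), 1.11-fold higher, with a log2 change of 0.15 ± 0.05 and limma adjusted p = 0.0633. With median-of-ratios scaling it passed (0.20, adjusted p = 0.0281), and after removal of length and GC trends the change was 0.33 ± 0.06 and passed as well (adjusted p = 0.0268). In the other 18 of 20 alternative settings Cd44 did not pass. Its change was smallest after rescaling to equal sums (0.10, limma adjusted p = 0.228). Cd44 (ENSMUSG00000005087) occupies chr2:102811141-102901665 (minus strand).

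Mmp19, a soluble matrix metalloproteinase, was the lowest of the expressed members and did not pass. It stood at 2.34, 2.76, 2.0004 and 2.45 FPKM in TABS replicates 5 to 8, against 2.53, 2.29, 2.78 and 2.70 FPKM in HA/Mg replicates 5 to 8. The log2 change was -0.08 with a 95% interval of -0.27 to 0.10 (limma adjusted p = 0.502). Mmp19 (ENSMUSG00000025355) occupies chr10:128790910-128800824 (plus strand) and shares 22.3% of its exon bases with Tmem198b on the opposite strand. Tmem198b reached 2.67 FPKM, and without a stated strand setting the fragments of both genes there cannot be told apart. Mmp14 (ENSMUSG00000000957) occupies chr14:54431612-54445364 (plus strand), and Timp2 (ENSMUSG00000017466) occupies chr11:118301069-118355740 (minus strand).

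**Figure D3:**
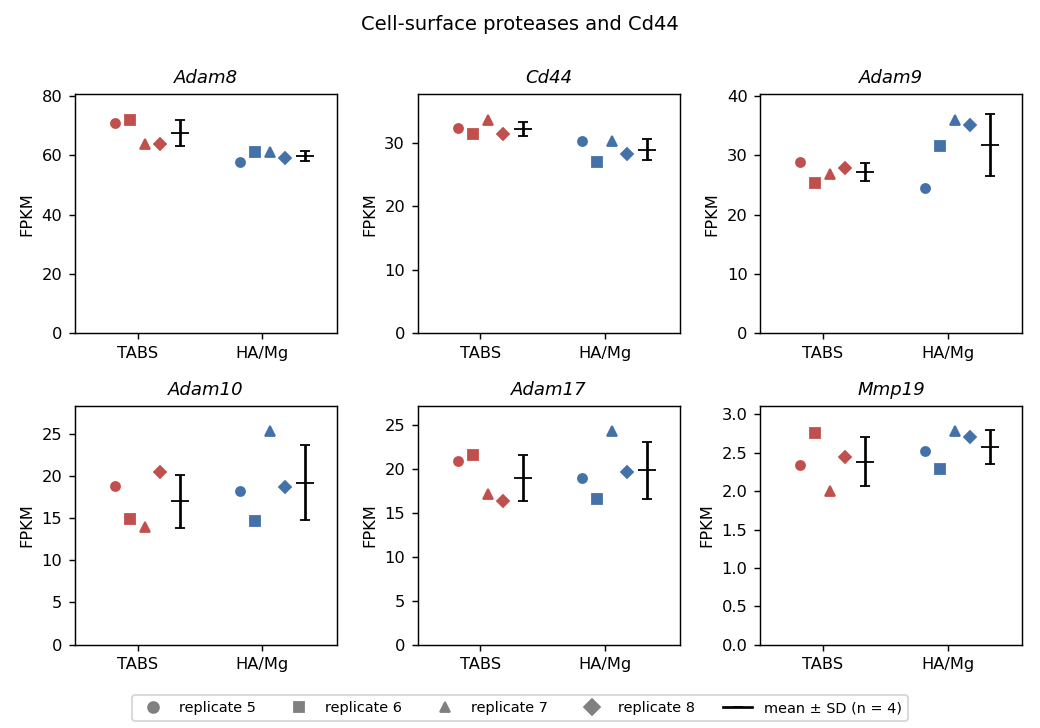
FPKM of Adam8, Cd44, Adam9, Adam10, Adam17 and Mmp19, with 1 symbol per library by replicate number and the mean ± SD of 4 libraries in black. The groups separate for Adam8 (63.6 to 71.9 FPKM with TABS and 57.6 to 61.2 FPKM with HA/Mg) and narrowly for Cd44, and overlap for the others.

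The GC content of the longest transcript differed among the members, from 42.1% in Adam10 to 54.9% in Adam8. The 2 members that passed, Adam8 and Plaur (53.0%), were also the 2 with the highest GC content among the 8 tested, the others lying at 42.1% to 49.0%. The Spearman correlation of the log2 change with GC content was 0.54 across 10157 genes, and that with transcript length was -0.31. Genes are not independent replicates, and these values describe the libraries. After each library's trends on both were removed, the log2 change was 0.56 ± 0.07 for Plaur (limma adjusted p = 0.0145) and 0.14 ± 0.05 for Adam8 (adjusted p = 0.118). Plau had 0.18 ± 0.07 (adjusted p = 0.130) and Mmp19 -0.02 ± 0.06 (adjusted p = 0.869). With these trends removed the 2 members that passed were Plaur and Cd44.

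**Figure D4:**
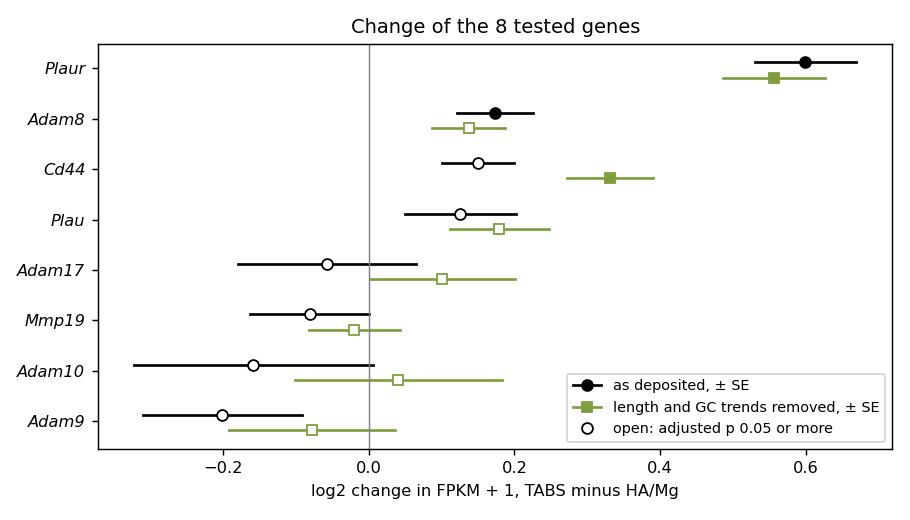
Log2 change in FPKM + 1, TABS minus HA/Mg, of the 8 tested genes with its standard error, from the values as deposited (black circles) and after removal of length and GC trends (green squares); filled symbols passed an adjusted p of 0.05. Plaur is filled on both scales at 0.60 and 0.56, Adam8 only as deposited and Cd44 only after the removal.

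Among the proteases and inhibitors around these genes, Mmp9 was the 1 of 17 other matrix metalloproteinase genes that was expressed well enough to be tested. Mmp9 encodes gelatinase B, an enzyme found to dock on CD44. It stood at 159, 143, 143 and 129 FPKM in TABS replicates 5 to 8, against 92.3, 121, 94.4 and 84.7 FPKM in HA/Mg replicates 5 to 8. HA/Mg replicate 6 was the nearest to the TABS libraries, and the groups did not overlap. Mmp9 was 1.46-fold higher with TABS, with a log2 change of 0.55 ± 0.11 (limma adjusted p = 0.0136).

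Of 8 other ADAM genes 1 was tested, Adam15, which did not pass (61.8 ± 5.74 FPKM with TABS and 54.6 ± 2.85 FPKM with HA/Mg, SD, n = 4 each, limma adjusted p = 0.0956). Of 9 other protease inhibitors 2 were tested and 0 passed limma (1 at an unadjusted p under 0.05), with a median log2 change of 0.20. They were the cystatins Cst7 (2.46 FPKM with TABS and 1.84 FPKM with HA/Mg, limma adjusted p = 0.09999) and Cst3 (173 FPKM with TABS and 158 FPKM with HA/Mg, adjusted p = 0.315). Timp1 was too low to be tested, at 0.158 to 0.209 FPKM with TABS and 0.0735 to 0.143 FPKM with HA/Mg, so none of the 4 Timp genes reached 1 FPKM in any library.

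Of 8 tested genes for the maturation and transport of ADAM10 and ADAM17, 0 passed limma at an adjusted p of 0.05. At an unadjusted p under 0.05, 1 was higher and 1 lower, and the median log2 change was 0.17. Rhbdf2, which encodes the iRhom2 partner that carries ADAM17 to the surface of macrophages, stood at 33.9, 33.3, 23.0 and 33.1 FPKM in TABS replicates 5 to 8, against 27.1, 26.2, 19.4 and 28.8 FPKM in HA/Mg replicates 5 to 8 (limma adjusted p = 0.210). Replicate 7 was the lowest library in each group. The smallest p-values were those of Tspan17 (3.14 FPKM with TABS and 2.48 FPKM with HA/Mg, adjusted p = 0.0839) and Tspan14 (9.24 FPKM with TABS and 10.3 FPKM with HA/Mg, adjusted p = 0.0985), both tetraspanins that bind ADAM10. Tspan14 passed as lower in 2 of 20 alternative settings, with array weights and without HA/Mg replicate 6 (limma adjusted p = 0.0216 and 0.0259).

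Of 14 tested genes for membrane proteins known to be shed 5 rose, 0 fell and 9 did not pass, with a median log2 change of 0.04. Over all tested genes 5.07% were higher and 13.1% lower, shares that move with the scaling. The list was chosen with earlier results of these data known, so its counts describe it and do not set it apart from other genes. Tnfrsf1b, the second TNF receptor, was 1.64-fold higher (log2 change 0.68 ± 0.12, limma adjusted p = 0.0120), with 50.5 to 74.7 FPKM with TABS against 36.4 to 39.2 FPKM with HA/Mg. Csf1r, the receptor of the macrophage growth factor CSF1, was 1.17-fold higher (adjusted p = 0.0112) and is also one of the macrophage markers. Axl, a receptor kinase for apoptotic cells, averaged 7.09 FPKM with TABS and 5.50 FPKM with HA/Mg (adjusted p = 0.0178). Tnfrsf1a, the first TNF receptor, averaged 31.5 FPKM with TABS and 25.8 FPKM with HA/Mg (adjusted p = 0.0181). The calls of Axl and Tnfrsf1a each ended without HA/Mg replicate 5, 7 or 8 and after removal of length and GC trends (adjusted p of 0.0504 to 0.0734). With these trends removed the log2 change was 0.30 for Axl, against 0.32 as deposited, and 0.20 for Tnfrsf1a, against 0.27 as deposited. The fifth was the adhesion molecule Icam1, at 15.7 ± 1.93 FPKM with TABS and 11.9 ± 0.624 FPKM with HA/Mg (SD, n = 4 each, adjusted p = 0.0197). Its call ended when HA/Mg replicate 5 or 7 was left out or low values were not filtered (adjusted p of 0.0548 to 0.0655). Tnf itself did not pass (19.7 ± 4.96 FPKM with TABS and 15.0 ± 4.03 FPKM with HA/Mg, SD, n = 4 each, adjusted p = 0.219).

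Of 11 tested ligands and partners of CD44 1 rose, 2 fell and 8 did not pass, with a median log2 change of -0.04. These counts lie near the shares over all tested genes, 5.07% higher and 13.1% lower. Hmmr, a hyaluronan-binding protein that is also a mitotic spindle gene, averaged 9.55 FPKM with TABS and 14.4 FPKM with HA/Mg (log2 change -0.55 ± 0.08, limma adjusted p = 0.00859). With length and GC trends removed the log2 change of Hmmr was -0.36 ± 0.08 (limma adjusted p = 0.0419). Ezr, the ezrin that ties CD44 to actin, averaged 39.7 FPKM with TABS and 47.5 FPKM with HA/Mg (adjusted p = 0.0173), a call that ended when HA/Mg replicate 5 or replicate 8 was left out (adjusted p = 0.0596 and 0.0513). Hyal2, a hyaluronidase at the cell surface, averaged 4.17 FPKM with TABS and 3.24 FPKM with HA/Mg (adjusted p = 0.0432), a call that ended in 10 of 19 alternative settings, among them the absence of TABS replicate 5, 6 or 7 or of HA/Mg replicate 5, 7 or 8, where the adjusted p was 0.0764 to 0.112. Of 7 tested macrophage markers 2 were higher with TABS, Cd68 (1.20-fold, limma adjusted p = 0.0197) and Csf1r, 0 were lower and 5 did not pass, with a median log2 change of 0.18. Among those 5, the log2 change was 0.25 for Adgre1, 0.18 for Lyz2, 0.10 for Fcgr1, -0.08 for Itgam and -0.12 for Ptprc. The Cd68 call ended with no filter on low values and in the absence of HA/Mg replicate 5, 7 or 8 (adjusted p up to 0.0660). The part of these markers in the differences of Plaur and the other genes was not tested.

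**Figure D5:**
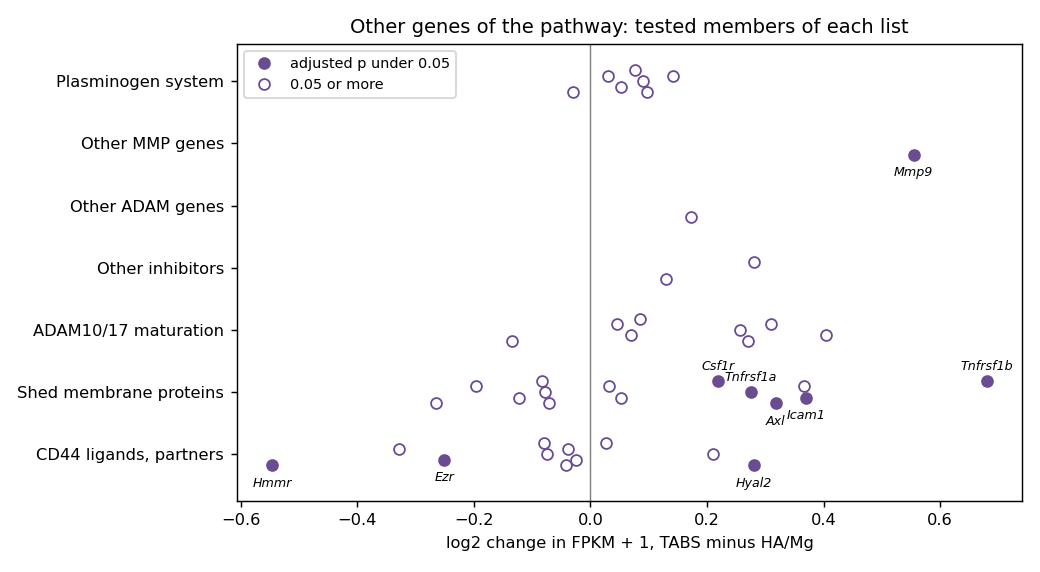
Log2 change in FPKM + 1, TABS minus HA/Mg, with 1 point for each tested gene of the 7 lists around the 10 members (vertical position within a list carries no value); filled points passed an adjusted p of 0.05. Mmp9 lies at 0.55, the 5 shed proteins that passed lie right of 0, and Hmmr and Ezr lie left of it.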

How the data were processed

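The RNA was purified with TRIzol, made into NEBNext Ultra libraries and read from both ends on a NovaSeq, per the labels' protocols. Per the submitters' processing notes fastp, STAR, DESeq2 and the build GRCm38 were used. Which tool produced the FPKM, on which annotation and with what strand setting, is not stated there. The authors deposited FPKM values, and no count test was run on them. Of 55335 identifiers 55154 matched GENCODE for GRCm38, which gave symbols, positions, transcript lengths and GC content.

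TABS and HA/Mg, grouped by sample titles, were compared with limma 3.58.1 in R 4.3.3, whose empirical Bayes step used a trend of variance on mean level. The test took log2(FPKM + 1) of genes that reached 1 FPKM in 4 or more libraries. Ratios of 2 genes were compared by an exact permutation test over 70 assignments. Of 4 planned ratios, Mmp14 to Timp2 could not be computed because of zeros. A 2 kb transcript at 1 FPKM would hold 39.5 to 47.2 fragments, with 14.6% to 15.9% error from counting alone.

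The members and lists were chosen with earlier results of these data known. Named besides the 10 members are up to 4 changed genes of each list with the smallest adjusted p (or the 2 with the smallest p where none changed), Timp1, Mmp9, Rhbdf2 and Tnf, and the 5 genes nearest to Plaur. A gene that this rule names is not reported here and was left out of the list counts. Icam1, Plg, Plat, Serpinb2, Mmp2 and the macrophage markers that did not pass were chosen after their values were seen. The alternatives changed the pseudocount, filter, scaling, moderation or weights, added the replicate block, removed length and GC trends, or left out 1 library.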

Additional observations from a re-analysis of the deposited data

Results flagged for a closer look

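The 70 groups of 4 libraries examined were those of the tested members, the other named genes and the ratios. In 5 of them 1 library lay farther from the rest than Dixon's 95% limit allows, and chance gives about 1 such group in 20. Plaur was 14.97 FPKM in TABS replicate 8, below the other TABS libraries at 15.98 to 16.2 FPKM and still above all HA/Mg libraries. Adam15 was 70.3 FPKM in TABS replicate 7, against 58.0 to 59.4 FPKM in the other TABS libraries. Rhbdf2 was 23.0 FPKM in TABS replicate 7, against 33.1 to 33.9 FPKM in the other TABS libraries. Fgr was 10.4 FPKM in HA/Mg replicate 6, against 8.02 to 8.33 FPKM in the other HA/Mg libraries. Hdc was 1.96 FPKM in HA/Mg replicate 5, against 2.09 to 2.10 FPKM in the other HA/Mg libraries.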

How the results depend on the processing

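Plaur kept its direction in all 20 alternatives (log2 change 0.55 to 0.66) and its call in 19, the exception being the replicate block (adjusted p = 0.0589). With 1 library left out 429 to 3320 genes changed in place of 1842, lowest without HA/Mg replicate 5 and highest without HA/Mg replicate 6, and each of the 8 libraries moved the count by over 1.5 times. Then 1 to 2 members were higher and 0 to 1 lower, the lower one being Adam9 without HA/Mg replicate 5. Of the members 1 was higher, in place of 2, with no filter on low values, equal sums, quantile normalization or no mean-variance trend, and Adam8 was the call lost. The count of changed genes was 647 with length and GC trends removed, 808 with no filter and 3532 with array weights. The replicate block left 0 genes changed in limma and 0 members higher (2987 genes at an unadjusted p under 0.05). Same-numbered libraries, after removal of group means, correlated at 0.0106, -0.275, -0.160 and 0.128. These correlations cannot decide whether same-numbered libraries were handled together, so the replicate block remains a possible setting. The signs that turned were of differences that had not passed. Mmp19 had 0.0103 with quantile normalization, and Adam10 0.0403 and Adam17 0.101 with length and GC trends removed. Adam17 ranged from -0.136 to 0.0401 with 1 library left out, positive in the absence of TABS replicate 8 or HA/Mg replicate 7. The log2 ratio of Adam10 to Adam17 ranged from -0.270 to 0.0180, positive only without TABS replicate 6. With 7 libraries the exact test cannot go below p = 0.0571, and with the replicate block not below 0.125. The p-values of those settings therefore say nothing about the stability of the ratios. With 1 library left out, the log2 change of the ratio was 0.424 to 0.621 for Plaur to Plau and 0.319 to 0.487 for Adam8 to Adam9. The cause of these shifts was not tested.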
